A study of Arabidopsis thaliana with 12 samples.

Results

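The comparison set 3 libraries of *se-1* seedlings against 3 libraries of WT seedlings, 6 of the 12 libraries of the series, chosen by the genotype their labels give. The other 6 libraries, 3 each of *cbp20* and *cbp80*, were used only where *se-1* was set directly against them, and both mutants lack normal function of a subunit of the nuclear cap-binding complex. All plants were *Arabidopsis thaliana* of the Col-0 ecotype, grown for 16 days on diluted MS medium in constant light without any treatment, and whole seedlings were held on ice for about 30 min during the harvest. The mutant *se-1* carries a hypomorphic allele of *SERRATE* (SE) with a small deletion, and loss of all SE function is lethal, so the comparison shows reduced and not absent SE function in a single line. Of 32833 genes in the count table, 20491 passed the filter on low counts and were tested.

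SE is a zinc-finger protein that works with the RNase DICER-LIKE 1 (DCL1) and the RNA-binding protein HYL1 when miRNAs are cut from the hairpins of their primary transcripts. The mature miRNAs then guide ARGONAUTE 1 (AGO1) to mRNAs with a complementary site, many of which encode transcription factors of leaf and flower development. SE also binds the cap-binding complex, takes part in splicing, and is known for the serrated leaves and early phase change of its mutants.

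The libraries held 19079724 to 21919462 counts in *se-1* and 20292037 to 21964939 in WT, and 3 counts, taken as the floor of detection, equalled 0.137 to 0.157 CPM (counts scaled to a library of 1000000). Log2 values of replicates correlated across genes at 0.994 to 0.995 in *se-1* and 0.995 to 0.996 in WT. RNA of *SE* (AT2G27100) itself was at 78.6, 81.4 and 81.9 CPM in *se-1*, against 81.4, 88.3 and 82.0 CPM in WT, a log2 difference of -0.06 ± 0.06 (SE of the fit, edgeR adjusted p = 0.491). Counts over the whole gene do not show the altered bases of the allele, so this value does not check the genotype. No source used here says whether the libraries of a genotype came from separately grown plants, and the p-values measure the spread between these libraries.

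In *se-1*, 3602 genes (17.6% of those tested) were higher and 3319 (16.2%) were lower than in WT at an adjusted p under 0.05, and the median log2 fold change of all tested genes was -0.004. Changes of at least 2-fold were fewer, with 752 genes (3.67%) higher and 564 (2.75%) lower. All *se-1* libraries lay above all WT libraries for 4797 genes (23.4%) and below them for 4707 (23%). The lists of genes that follow are read against these shares. Scaled by library size alone, the split of calls moved to 34.3% higher and 65.7% lower, because the median of all genes then shifted to -0.089, against 52% higher and 48% lower after TMM normalization. In whole seedlings, fewer cells of a type and less RNA per cell cannot be told apart.

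**Figure D1:**
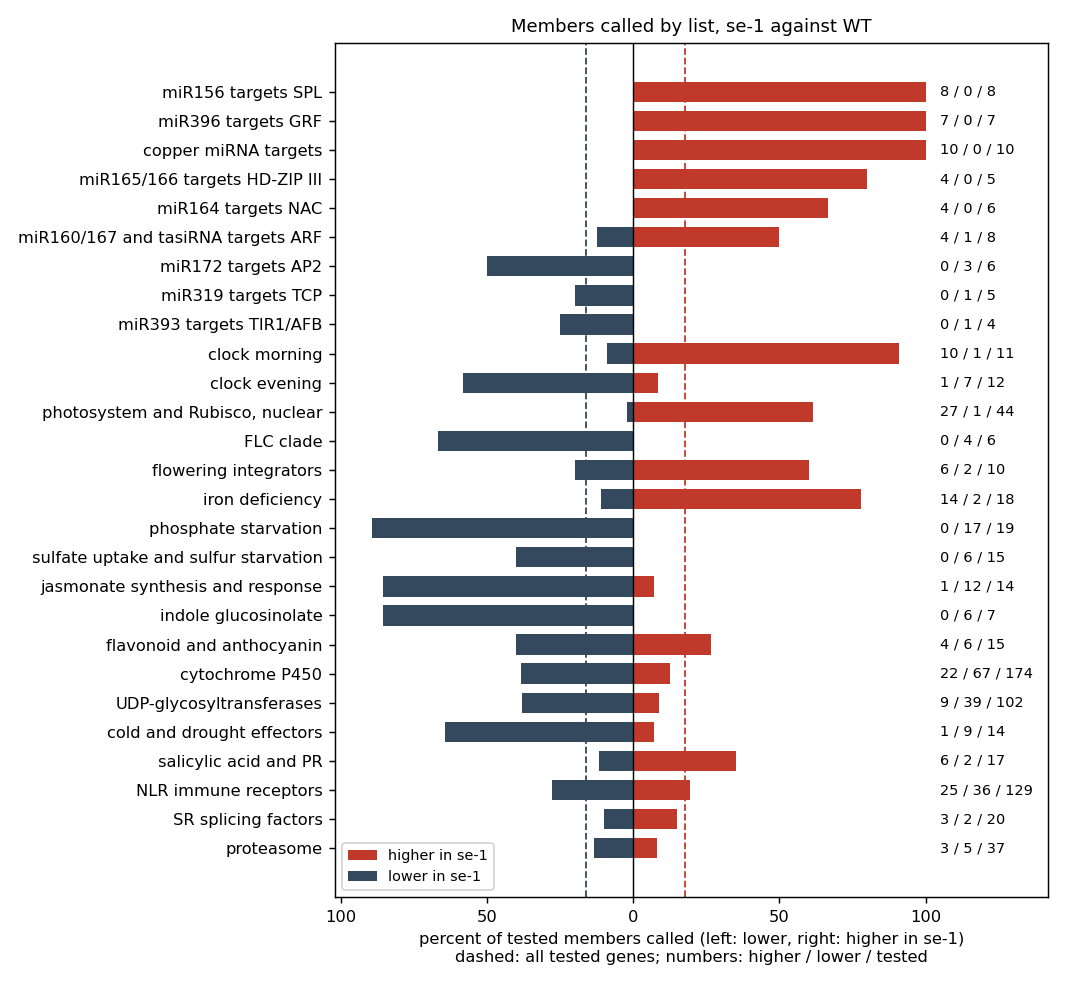
Share of the tested members of each list called lower (left) or higher (right) in *se-1* than in WT, with the shares among all 20491 tested genes as dashed lines (17.6% higher, 16.2% lower). Lists of *SPL*, *GRF*, HD-ZIP III, NAC, *ARF* and copper miRNA targets, morning clock genes and iron deficiency genes lie mostly to the right. The target lists of miR172, miR319 and miR393 hold no member called higher. Lists of phosphate starvation, jasmonate and indole glucosinolate genes lie mostly to the left.

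Transcripts of *MIRNA* genes, the long precursors from which DCL1 and SE release miRNAs, rose strongly in *se-1*. The summed level of all 325 annotated *MIRNA* genes, filtered or not, was 317, 312 and 314 CPM in *se-1*, against 74.8, 69.2 and 72.1 CPM in WT. Of these genes, 164 had no count in any of the 6 libraries and 54 passed the filter. Of these, 33 had fewer than 10 counts in at least 1 WT library and needed an *se-1* library to pass, so their direction is not read as a result. The other 21 had at least 10 counts in each WT library, and 15 of these were higher in *se-1*, 1 was lower and 5 were not called, with a median log2 fold change of 1.44.

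The precursor of miR168, the miRNA that targets *AGO1* itself, showed the largest rise among genes with at least 5 CPM on average over the 6 libraries. *MIR168a* (AT4G19395, chr4:10578635-10578772, plus strand) was at 27.4, 33.3 and 31.2 CPM in *se-1*, against 0.938, 0.716 and 0.728 CPM in WT, a 38.2-fold difference (log2 5.26 ± 0.14, edgeR adjusted p = 2.43e-10). *MIR156c* and *MIR157c* encode the miRNAs that hold back the change from juvenile to adult leaves. *MIR156c* was at 25.7, 24.4 and 24.6 CPM in *se-1*, against 1.12, 1.43 and 1.14 CPM in WT (log2 4.34 ± 0.12), and *MIR157c* at 74.3, 59.5 and 67.6 CPM in *se-1*, against 8.58, 6.49 and 7.19 CPM in WT (log2 3.17 ± 0.11). In all 3 genes every *se-1* library lay above every WT library.

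Precursors of other families also had more counts in *se-1*, but the genes given here needed *se-1* libraries to pass the filter. Their levels are given, and their direction is not read as a result. *MIR172b*, whose miRNA acts on *AP2*-type floral repressors, was at 6.09, 6.94 and 5.82 CPM in *se-1*, against 0.179, 0.382 and 0.136 CPM in WT (log2 4.74 ± 0.26). *MIR390a*, which starts the production of small RNAs from *TAS3*, had 133 counts over the *se-1* libraries and 0 over the WT libraries, and was at least 48.5-fold higher against a floor of 3 counts over the group. *MIR166b* had 254 counts over the *se-1* libraries and 3 over the WT libraries, a ratio of 92.6 with a counting interval (95%) of 31.3 to 452. Most *MIRNA* genes at such low levels in WT cannot be given a precise fold.

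The rise was not of one size. *MIR159b* was at 17.6, 18.6 and 20.5 CPM in *se-1*, against 7.59, 8.26 and 5.05 CPM in WT (log2 1.44 ± 0.14). *MIR162a*, whose miRNA targets *DCL1*, averaged 4.09 ± 0.457 CPM in *se-1* and 3.13 ± 0.391 CPM in WT (SD, n = 3 each) and was not called (edgeR adjusted p = 0.0759), although the groups did not overlap. *MIR163*, a young Arabidopsis miRNA gene, was at 2.03, 1.72 and 2.15 CPM in *se-1*, against 3.53, 3.58 and 3.50 CPM in WT, and fell by 0.85 ± 0.16 on the log2 scale (edgeR adjusted p = 0.00164). It was the only *MIRNA* gene called lower.

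**Figure D2:**
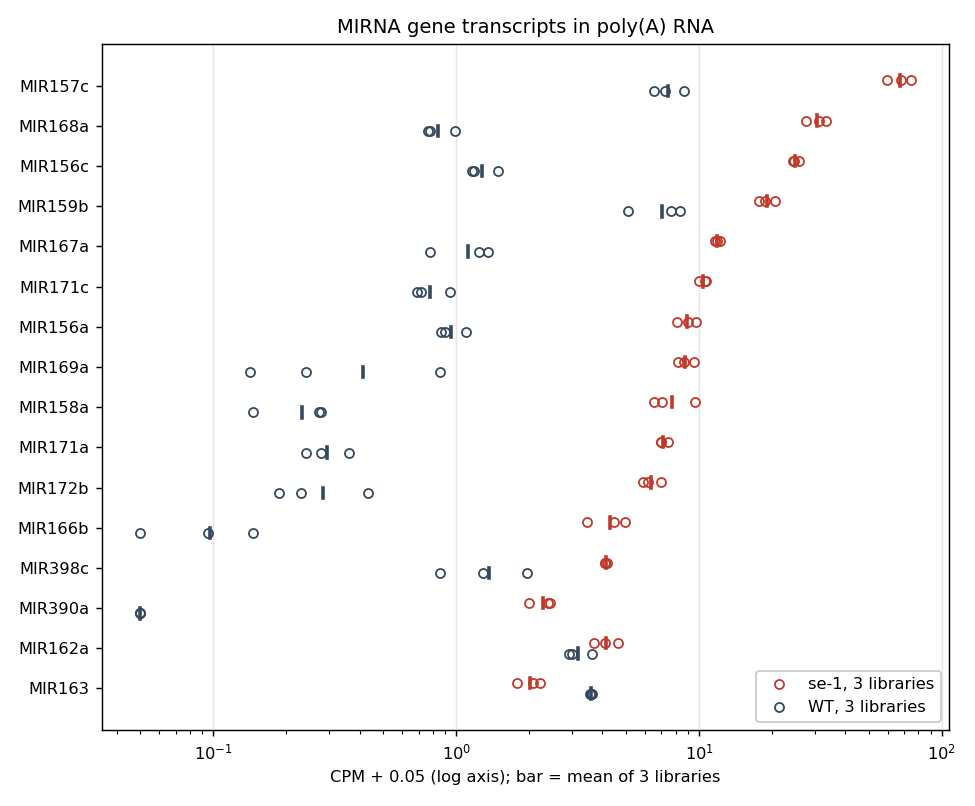
Level of 16 *MIRNA* gene transcripts in each library (CPM + 0.05, log axis, open points) with the mean of 3 libraries as a bar. The *se-1* libraries lie above the WT libraries for every gene shown except *MIR163*, where they lie below.

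Mature sequences are shown for precursors at higher levels in *se-1*. Their seeds (bases 2 to 8, in capitals) and the bases beyond them define the target families treated next. Among them, *MIR157a*, *MIR171a*, *MIR172b*, *MIR166b*, *MIR164b*, *MIR390a* and *MIR403* needed *se-1* libraries to pass the filter, so their direction is not read as a result. The sequences were read from RefSeq's annotation on the TAIR10 genome and are written 5′ to 3′.
miR156a-5p and miR156c-5p: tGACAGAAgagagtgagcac
miR157a-5p and miR157c-5p: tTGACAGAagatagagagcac
miR168a-5p: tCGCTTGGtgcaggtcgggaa
miR167a-5p: tGAAGCTGccagcatgatcta
miR171a-3p: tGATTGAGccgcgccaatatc
miR172b-3p: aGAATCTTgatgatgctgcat
miR166b-3p: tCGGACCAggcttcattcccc
miR164b-5p: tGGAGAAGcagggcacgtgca
miR390a-5p: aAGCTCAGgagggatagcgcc
miR403-3p: tTAGATTCacgcacaaactcg
Among these lines no seed is identical, but the seed of miR157 overlaps that of miR156 in a shifted position. The copies *MIR156a* and *MIR156c*, like *MIR157a* and *MIR157c*, encode identical miRNAs. They lie at chr4:15415491-15415510 (miR156c, minus strand), chr3:6244673-6244693 (miR157c, minus), chr4:10578652-10578672 (miR168a, plus), chr3:8108090-8108110 (miR167a, plus), chr3:19073521-19073541 (miR171a, plus), chr5:1188211-1188231 (miR172b, minus), chr3:22922301-22922321 (miR166b, plus), chr5:287586-287606 (miR164b, plus), chr2:16061971-16061991 (miR390a, plus) and chr2:19415154-19415174 (miR403, plus).

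The mRNAs of several target families were higher in *se-1*. Of the 11 *SPL* genes with a miR156 site, which promote adult leaves and flowering, 8 were tested and all 8 were higher (17.6% of all tested genes were), with a median log2 fold change of 0.81. *SPL9* (AT2G42200) was at 11.4, 12.3 and 11.6 CPM in *se-1*, against 4.96, 4.92 and 4.46 CPM in WT (log2 1.30 ± 0.10, edgeR adjusted p = 1.36e-06). *SPL13A* reached 2.27 ± 0.32 on the log2 scale, with 1.32, 2.00 and 1.62 CPM in *se-1* and 0.223, 0.430 and 0.364 CPM in WT, and *SPL2* only 0.26 ± 0.07. *SPL3*, *SPL13B* and *SPL15* did not pass the filter. *SPL13A*, counted among the 8, passed it only through *se-1* libraries, so its direction is not read as a result.

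Among the 5 HD-ZIP III genes, which set the upper side of leaves and are targets of miR165 and miR166, 4 were higher. *PHB* was at 93.1, 104 and 96.9 CPM in *se-1*, against 47.8, 50.02 and 49.2 CPM in WT (log2 1.00 ± 0.06). *ATHB-15* rose by the same log2 1.00 ± 0.06 and *PHV* by 0.78 ± 0.08. *REV* was higher by only 0.20 ± 0.06, a call lost without replicate 1 or 2 of *se-1* or of WT (0.17 to 0.21), with DESeq2 (adjusted p = 0.108) and when scaled by library size alone (0.11), while *HB-8* was at log2 0.10 and not called. All 7 *GRF* genes, regulators of leaf size under miR396, were higher, between log2 0.41 (*GRF4*) and 2.65 (*GRF8*). At its WT level *GRF8*, counted among the 7, needed *se-1* libraries to pass the filter, so its direction is not read as a result.

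Of the 6 miR164 targets, NAC transcription factors of organ boundaries and ageing, 4 were higher. *CUC1* was at 1.57, 1.35 and 2.26 CPM in *se-1*, against 0.536, 0.382 and 0.409 CPM in WT (log2 1.94 ± 0.31). At these WT levels it needed *se-1* libraries to pass the filter, which limits how its direction can be read. *CUC2*, which shapes leaf serrations, was at 2.23, 2.52 and 2.85 CPM in *se-1*, against 0.670, 0.859 and 0.455 CPM in WT (log2 1.93 ± 0.25), and *ORE1* (also *NAC6*), a regulator of leaf senescence, rose by 0.94 ± 0.15. *NAC080* and *NAC100* of the same family were at log2 0.38 and -0.06 and were not called. The miR159 targets *MYB33* and *MYB65* rose by 0.55 ± 0.09 and 0.81 ± 0.15, and 5 further *MYB* targets of miR159 were not tested.

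Targets of the copper miRNAs, copper proteins whose mRNAs are cut when copper is scarce, were higher for all 10 tested of 11, with a median log2 of 0.91. *CSD2*, a plastid superoxide dismutase, was at 61.4, 72.9 and 58.1 CPM in *se-1*, against 20.9, 19.0 and 16.2 CPM in WT (log2 1.78 ± 0.10, edgeR adjusted p = 8.62e-08). Its cytosolic counterpart *CSD1* rose by 1.21 ± 0.10, the plantacyanin *ARPN* by 1.14 ± 0.12 and the laccases *LAC3*, *LAC4* and *LAC17* by 0.94, 0.88 and 0.85. The laccase *LAC2*, with 0.660, 0.699 and 1.24 CPM in *se-1* and 0.447, 0.143 and 0.409 CPM in WT, was near the floor of detection, and its rise (1.33 ± 0.43) lost its call without *se-1* replicate 3, WT replicate 2 or WT replicate 3 (0.99 to 1.5) and with DESeq2 (adjusted p = 0.0742).

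Of 8 auxin response factors under small RNAs 4 were higher and 1 lower. *ARF8* (104, 98.7 and 102 CPM in *se-1*, 50.3, 50.1 and 52.0 CPM in WT, log2 1.00 ± 0.06) and *ARF6* (log2 0.55 ± 0.07), both with miR167 sites, were higher. *ARF4* (0.82 ± 0.06) and *ARF3* (0.49 ± 0.07), which are cut by small RNAs from *TAS3*, were higher too, whereas *ARF2* of the same class fell by 0.43 ± 0.07. *ARF10*, *ARF16* and *ARF17*, with miR160 sites, were between log2 -0.12 and 0.08 and were not called.

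None of the 6 miR172 targets was higher and 3 were lower (16.2% of all tested genes were): *SMZ* at 4.77, 4.89 and 3.50 CPM in *se-1*, against 8.89, 8.21 and 7.19 CPM in WT (log2 -0.88 ± 0.14), *SNZ* (-0.36) and *AP2* (-0.32). miR172 is known to block translation of these mRNAs as well as to cut them, and protein was not measured. None of the 5 *TCP* genes under miR319 and of the 4 auxin receptor genes under miR393 was higher, and *TCP3* and *AFB2* were lower (log2 -0.53 and -0.21). These calls were lost without *se-1* replicate 1 (*AFB2*, -0.18), *se-1* replicate 2 (*TCP3*, -0.52), *se-1* replicate 3 (-0.41 and -0.21), WT replicate 1 (*TCP3*, -0.48) or WT replicate 3 (*TCP3*, -0.51), and both were lost with DESeq2 (adjusted p = 0.0729 for *TCP3* and 0.0554 for *AFB2*). Among 7 *NF-YA* genes, targets of miR169, 3 were higher (42.9%) and none lower, led by *NF-YA2* (log2 0.90 ± 0.09), and *HAM2* (0.31) and *HAM3* (-0.39), both under miR171, were called in opposite directions.

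**Figure D3:**
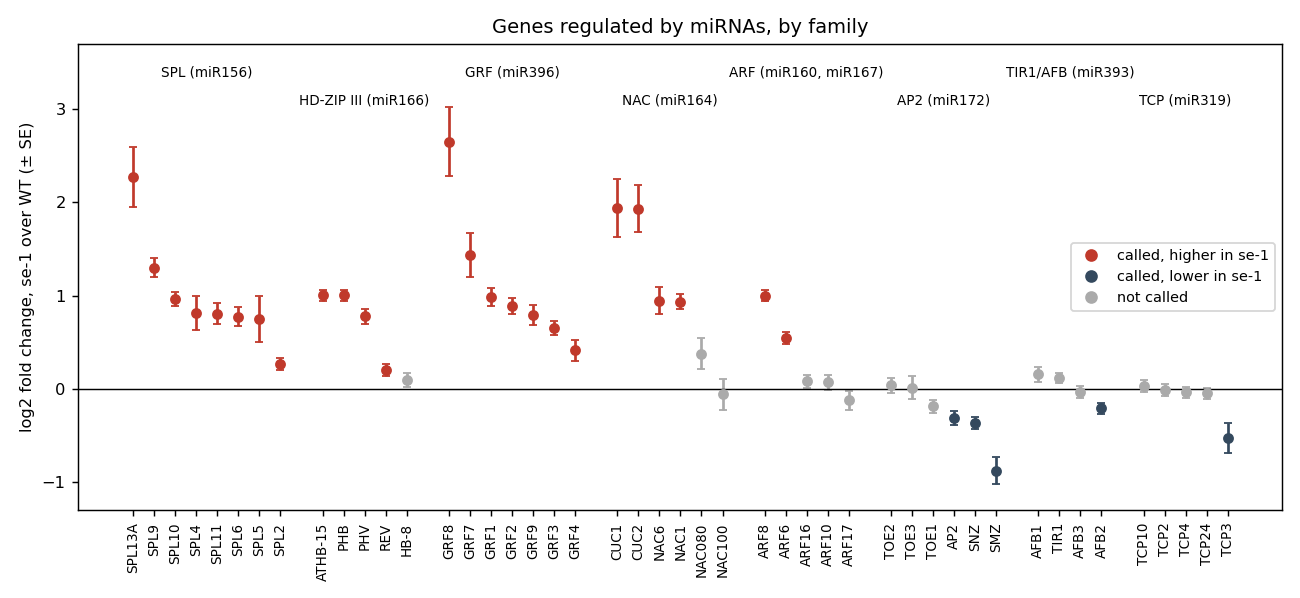
Log2 fold change of miRNA target genes by family (*se-1* over WT, ± SE of the fit), in red where called higher, dark blue where called lower and grey where not called. *SPL* and *GRF* genes lie above 0 throughout, while *AP2*-type genes lie at or below 0.

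To show what distinguishes these sites in sequence, the longest RefSeq transcript of each protein-coding gene and each tested noncoding gene was searched. The best ungapped pairing to the miRNA with at most 4 mismatches was kept, and shorter transcripts were not searched. Paired bases are given in capitals (mRNA strand, 5′ to 3′).
SPL9, miR156: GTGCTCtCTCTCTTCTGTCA
ATHB-15, miR166: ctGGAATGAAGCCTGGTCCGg
ARF8, miR167: TAGATCAgGCTGGCAGCTTgt
CUC1 and CUC2, miR164: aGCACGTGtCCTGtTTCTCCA
AGO1, miR168: TTCCCGAgCTGCAtCAAGCtA
AGO2, miR403: gGAGTTTGTGCGTGAATCTAA
LAC2, miR397: aATCAAtGCTGCACTCAATGA
TOE2, miR172: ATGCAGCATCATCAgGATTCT
The *SPL9* site (chr2:17589066-17589085, plus strand) and the *TOE2* site (chr5:24210889-24210909, plus strand) each had 1 mismatch, yet *SPL9* rose and *TOE2* was at log2 0.04 and not called. *ARF17*, with 1 mismatch to miR160, was not called either (log2 -0.12). The *AGO1* site is at chr1:17891529-17891549 (minus strand), the *AGO2* site at chr1:11185223-11185243 (plus), the *ARF8* site at chr5:14633841-14633861 (plus), the *CUC1* site at chr3:5111137-5111157 (plus), the *CUC2* site at chr5:21902301-21902321 (minus) and the *LAC2* site at chr2:12526364-12526384 (minus), and the *ATHB-15* site spans an exon junction between chr1:19412976 and 19413085 (minus). In all, 64 listed protein-coding targets had such a site and 56 were tested, of which 30 were higher, 6 lower and 20 not called. Among all tested genes, 17.6% were higher and 16.2% lower. Matches in protein-coding genes outside the list of the miRNA searched numbered 197, most of them with 4 mismatches. Of these, 34 lay in genes called higher, 25 in genes called lower and 107 in genes not called, and the rest were not tested. No such match was found in the listed *GRF* and *TCP* genes for miR396 and miR319, nor in the listed *TAS* genes for miR390, the only miRNA searched there.

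Of 16 genes for miRNA production and action, 4 were higher and 1 was lower. *DCL1* was at 93.2, 104 and 98.6 CPM in *se-1*, against 58.4, 58.2 and 64.3 CPM in WT (log2 0.71 ± 0.07, edgeR adjusted p = 4.63e-06). *AGO1*, target of miR168, rose by 0.45 ± 0.07, with 279, 323 and 287 CPM in *se-1* and 218, 214 and 219 CPM in WT. *CPL1*, a phosphatase of HYL1, rose by 0.79 ± 0.06, and *ABH1*, which encodes CBP80, by 0.39 ± 0.07. *HYL1*, *HEN1* (a methylase of small RNAs) and *HST* (a nuclear exporter) were within 0.12 of 0 on the log2 scale and were not called.

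The siRNA pathway was near the background in number (4 higher and 3 lower of 16) but held large differences in level within the ARGONAUTE family. *AGO3* was at 5.38, 7.03 and 5.87 CPM in *se-1*, against 0.715, 0.907 and 0.364 CPM in WT (log2 3.20 ± 0.24), and *AGO2*, which acts in antiviral defence, at 57.8, 52.7 and 51.8 CPM in *se-1*, against 19.6, 20.9 and 22.9 CPM in WT (log2 1.36 ± 0.07). Both carry the miR403 site, and they are neighbours on chromosome 1. *AGO9*, known from the germ line, rose by 2.79 ± 0.35 at a low level (1.42 ± 0.312 CPM in *se-1*, 0.199 ± 0.0218 CPM in WT). *AGO9* passed the filter only through *se-1* libraries, and *AGO3*, at its WT levels, also needed an *se-1* library to pass. The direction of both is therefore not read as a result. *AGO7*, the partner of miR390, fell by 0.45 ± 0.08 and *RDR6*, which makes the second strand of *TAS* RNAs, by 0.24 ± 0.06. *TAS3* RNA, the substrate of *AGO7*, was at 30.2, 24.7 and 24.5 CPM in *se-1*, against 15.5, 13.3 and 13.1 CPM in WT (log2 0.92 ± 0.10), and *TAS1C* rose by 0.42. *TAS4* (-1.68 ± 0.37, under 1.1 CPM in every library), *TAS1B* (-0.57) and *TAS2* (-0.27) were lower. *TAS4* needed WT libraries to pass the filter, so its direction is not read as a result.

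The circadian clock divided by time of day. Morning genes, whose transcripts peak in the first part of the day and which include repressors and activators of evening genes, were higher for 10 of 11, with a median log2 of 1.21. *LHY* was at 403, 327 and 402 CPM in *se-1*, against 129, 130 and 140 CPM in WT (log2 1.51 ± 0.09), and *CCA1* at 218, 186 and 216 CPM in *se-1*, against 91.2, 91.6 and 100.2 CPM in WT (log2 1.13 ± 0.07). The coactivator gene *LNK2* rose by 1.81 ± 0.07 (295, 314 and 311 CPM in *se-1*, 84.6, 83.1 and 94.1 CPM in WT), *LNK3* by 1.77 ± 0.07 and *PRR9* by 1.54 ± 0.12. Only *RVE2* was lower (-0.27 ± 0.07), a call lost without *se-1* replicate 3 (-0.24) or WT replicate 1 (-0.21).

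Of 12 evening genes, 7 were lower and 1 was higher. *FKF1*, a blue-light receptor, was at 18.02, 24.3 and 20.4 CPM in *se-1*, against 39.6, 39.3 and 36.0 CPM in WT (log2 -0.87 ± 0.09). *BOA* fell by 1.23 ± 0.12, and *ELF4* and *LUX*, subunits of the evening complex, by 0.54 ± 0.07 and 0.53 ± 0.07. *TOC1*, the evening repressor of *CCA1*, fell by 0.32 ± 0.08, *GI* was at log2 0.08 (not called), and *PRR5* was the exception, with 87.4, 146 and 99.6 CPM in *se-1* against 36.5, 34.5 and 38.6 CPM in WT (log2 1.60 ± 0.15).

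All 12 tested outputs of the clock were called (33.8% of all tested genes were, in either direction), 8 higher and 4 lower. *CO*, the photoperiod activator of flowering, was at 5.94, 8.43 and 8.83 CPM in *se-1*, against 0.893, 0.955 and 1.27 CPM in WT (log2 2.89 ± 0.21), and its repressors *CDF1* and *CDF2* rose by 0.68 ± 0.10 and 0.73 ± 0.07. The growth regulator *PIF5* rose by 1.35 ± 0.07. The RNA-binding protein gene *GRP7* was at 699, 852 and 689 CPM in *se-1*, against 1064, 1158 and 1146 CPM in WT (log2 -0.59 ± 0.09), and *COR27* fell by 0.77 ± 0.13. The plants grew in constant light, and the hour of harvest of each genotype is not given in the sources used here, so its part in these values was not tested.

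The evening element, AAAATATCT on either strand, is bound by CCA1 and LHY. It was found within 500 bases before the start of 5 of 12 evening genes (41.7%), 1 of 11 morning genes and 4 of 13 outputs, against 4.43% of 27443 protein-coding genes. The windows of 3 genes that fell and of *PRR5*, which rose, are shown with the element in capitals (strand of the gene, TAIR10).
LUX, chromosome 3: tagaagatctAAAATATCTagctaactcg
FKF1, chromosome 1: tgagtaggctAGATATTTTctcggaatat
TOC1, chromosome 5: aaatatcatgAGATATTTTctccaagatg
PRR5, chromosome 5: gattttttctAGATATTTTcttttctcca
They lie at chr3:17182979-17183007, chr1:25508443-25508471, chr5:24674802-24674830 and chr5:8358715-8358743. The match is a description of the letters, and *PRR5* and *FKF1* held it although they moved in opposite directions.

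Nuclear genes of the photosystems and Rubisco were higher for 27 of 44 (1 lower), with a median log2 of 0.38, and the largest rises were in light-harvesting proteins. *CAB2* was at 7742, 8652 and 8239 CPM in *se-1*, against 1726, 1505 and 1970 CPM in WT (log2 2.24 ± 0.10, edgeR adjusted p = 1.86e-08). *LHCB2.3* rose by 2.32 ± 0.11, *LHCB2.2* by 1.58 ± 0.08, *LHCB3* by 1.46 ± 0.10 and *LHCA4* by 1.29 ± 0.07. *CAB2* and the *LHCB2* genes have near-identical copies, so pairs that align to several of them were not counted and the share of each copy is uncertain. *PSBQ-2*, a subunit of the oxygen-evolving complex, was lower (-0.23 ± 0.08), but only *se-1* replicate 1 could be left out without losing that call (-0.14 to -0.25 without each other library). Genes of the plastid genome itself were near or below the background, with 11 higher and 10 lower of 99, and plastid genes held 0.984% to 1.08% of counts in *se-1* and 0.975% to 1.14% in WT.

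The floral repressor *FLC* was not detected in *se-1*. It had 0 counts in all 3 *se-1* libraries and 1.38, 1.29 and 1.41 CPM in WT (89 counts in sum), at least 27.1-fold lower against a floor of 3 counts over the group. Of its relatives, *MAF1* was at 14.5, 13.1 and 15.2 CPM in *se-1*, against 34.8, 36.3 and 36.7 CPM in WT (log2 -1.33 ± 0.07), *MAF4* and *MAF5* fell by 1.61 ± 0.23 and 1.33 ± 0.22, and *MAF2* and *MAF3* (log2 0.10 and 0.16) were not called. Much of *FLC*'s exons is shared with an overlapping gene, where pairs were not counted.

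Among 10 tested genes that promote or integrate flowering, 6 were higher and 2 lower. The higher count was 5 when at least 1 CPM in 3 libraries was required and 4 without any 1 of the *se-1* libraries. *AP1* and *LFY*, both counted as higher, passed the filter only through *se-1* libraries, so their direction is not read as a result. *AP1*, which marks young flowers, had 66 counts over the *se-1* libraries and 1 over the WT libraries, a ratio of 72.2 with a counting interval of 12.5 to 2.89e+03, and *LFY*, its activator, was at 1.42, 1.12 and 1.35 CPM in *se-1*, against 0.268, 0.334 and 0.318 CPM in WT (log2 2.05 ± 0.31). *FUL* rose by 1.19 ± 0.21 and *SOC1* by 0.41 ± 0.08. *FT*, the leaf-made flowering signal, was at 0.711, 0.512 and 0.431 CPM in *se-1*, against 1.07, 1.098 and 1.137 CPM in WT (log2 -0.99 ± 0.29), a call lost without *se-1* replicate 2 (-0.93), *se-1* replicate 3 (-0.85) or WT replicate 3 (-0.96) and with DESeq2 (adjusted p = 0.109). *AGL24*, a floral activator, was at 11.015, 9.78 and 9.21 CPM in *se-1*, against 24.5, 23.3 and 21.1 CPM in WT, and was the other gene called lower. Of 6 flower organ genes only *PI* and *SEP3* were tested, *SEP3* was higher (1.02 ± 0.27), and the 6 summed to 2.96 to 4.57 CPM in *se-1* and 1.83 to 2.1 CPM in WT. The part of flower buds in these levels was not tested.

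Genes that plants turn on when phosphate is short were lower for 17 of 19 (16.2% of all tested genes were), with a median log2 of -1.46, and none was higher. *IPS1*, a non-coding RNA that captures miR399, was at 1.52, 0.699 and 1.08 CPM in *se-1*, against 10.5, 16.99 and 16.8 CPM in WT (log2 -3.75 ± 0.25, edgeR adjusted p = 3.07e-07). Its relative *AT4* (AT5G03545) was at 17.4, 14.6 and 14.3 CPM in *se-1*, against 109, 151 and 189 CPM in WT (log2 -3.28 ± 0.17). In both genes all *se-1* libraries lay far below all WT libraries.

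The fall took in sensors, transporters and enzymes of the response. The pyrophosphatase *PS2* fell by 3.11 ± 0.18, the phosphate sensors *SPX3* and *SPX1* by 2.92 ± 0.39 and 2.11 ± 0.13, and the lipid-remodelling enzymes *MGD3*, *MGD2*, *SQD1* and *SQD2*, which replace phospholipids, by 2.77, 1.73, 1.13 and 0.92. The phosphate transporter *PHT1;4* was at 14.7, 12.6 and 14.6 CPM in *se-1*, against 31.1, 40.7 and 45.7 CPM in WT (log2 -1.49 ± 0.13), and the phosphatase *PAP17* fell by 1.22 ± 0.13. The regulator *PHR1*, which acts on these genes through its protein, was at log2 0.04 ± 0.06 and the RNase *RNS1* at -0.09, and neither was called. *PHO2*, target of miR399, was at -0.19 and not called, and *NLA*, target of miR827, rose by 0.85 ± 0.11.

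The element GNATATNC, bound by PHR1, was found on either strand within 500 bases before the start of 7 of the 19 genes (36.8%), against 10.7% of 27443 protein-coding genes and 12.8% of the genes lower in *se-1*. These windows show it in capitals (strand of the gene, TAIR10).
AT4: ttggtaattgGCATATTCcttttagaag
SPX3: ctaaagctaaGCATATCCgctttcatat
PS2: ttgggtaacgGAATATTCttctcttatt
GDPD1: gcgatccaaaGAATATTCcaagatccca
They lie at chr5:894546-894573 (plus), chr2:18606310-18606337 (plus), chr1:27466548-27466575 (minus) and chr3:350056-350083 (minus). *GDPD1*, a phosphodiesterase of lipid breakdown, held 4 such matches and fell by 1.62 ± 0.12. *IPS1* is among the genes without a match in this window.

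Iron deficiency genes went the other way, with 14 of 18 higher, 2 lower and a median log2 of 1.29. *IRT1*, the iron transporter of the root surface, was at 41.6, 57.9 and 28.7 CPM in *se-1*, against 8.67, 8.73 and 5.69 CPM in WT (log2 2.48 ± 0.23), and the ferric reductase *FRO2* at 19.3, 26.7 and 14.4 CPM in *se-1*, against 5.41, 6.68 and 4.09 CPM in WT (log2 1.91 ± 0.21). The bHLH regulators that switch them on rose as well. *BHLH39* was at 6.29, 15.6 and 9.59 CPM in *se-1*, against 1.88, 1.00 and 1.41 CPM in WT (log2 2.87 ± 0.32), and *BHLH100* at 0.609, 9.32 and 3.29 CPM in *se-1*, against 0.313, 0.0477 and 0.182 CPM in WT. The groups did not overlap, but the *se-1* libraries differed widely, with replicate 2 the highest. *BHLH100* passed the filter only through *se-1* libraries, so its direction is not read as a result.

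*FIT*, the root partner of these bHLH proteins, was at 6.04, 5.45 and 5.01 CPM in *se-1* and 5.90, 5.06 and 5.41 CPM in WT and was not called. The small peptides AT1G47400 and AT1G47395 rose by 2.08 ± 0.30 and 1.72 ± 0.18, the phloem transporter *OPT3* by 0.88 ± 0.08, the ubiquitin ligase *BTS* by 0.73 ± 0.11 and *CYP82C4*, which makes an iron-mobilising coumarin, by 2.91 ± 0.33. The nicotianamine synthases *NAS1* and *NAS3*, which make a metal chelator, fell by 0.80 ± 0.15 and 0.77 ± 0.19, and *NAS4* rose by 0.77 ± 0.10. Ferritins *FER3* and *FER4*, which store iron, fell by 0.41 ± 0.11 and 0.54 ± 0.15, and the call of *FER3* was lost without WT replicate 1 (-0.36) or 2 (-0.38). Root markers summed to 186 to 210 CPM in *se-1* and 196 to 208 CPM in WT, with 1 of 13 higher and 5 lower, so the summed root signal was not higher in *se-1*.

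Sulfur, nitrate and sugar genes were also counted. Of 15 genes of sulfate uptake and sulfur starvation, 6 were lower and none higher, among them *LSU2* (-1.01 ± 0.13) and the sulfate-reducing enzymes *APR1* (-0.77 ± 0.07) and *APR3* (-0.73 ± 0.07). The nitrate reductases were called in opposite directions: *NIA1* was at 862, 1253 and 854 CPM in *se-1*, against 335, 318 and 329 CPM in WT (log2 1.60 ± 0.13), and *NIA2* at 1212, 1168 and 1082 CPM in *se-1*, against 1544, 1583 and 1698 CPM in WT (log2 -0.48 ± 0.07). Of 6 genes that rise when sugar runs short, 5 were higher, led by the asparagine synthetase *ASN1* with 202, 239 and 182 CPM in *se-1* against 50.8, 57.2 and 61.8 CPM in WT (log2 1.87 ± 0.10).

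**Figure D4:**
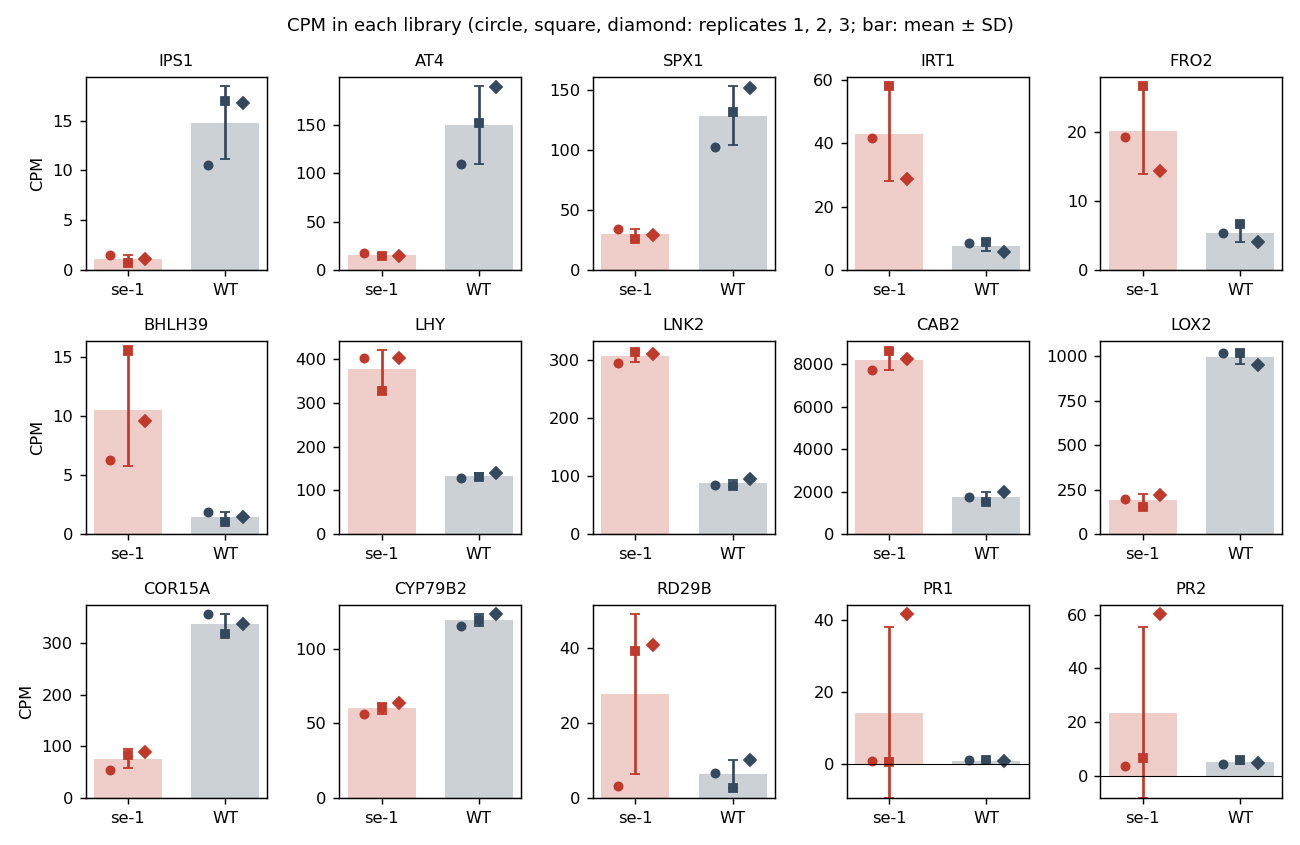
Level in CPM of 15 genes in each library (symbols mark replicates 1, 2 and 3) with bars for the mean ± SD, *se-1* left of WT. The phosphate starvation genes *IPS1*, *AT4* and *SPX1* are lower and the iron deficiency genes *IRT1*, *FRO2* and *BHLH39* higher in all *se-1* libraries, while *PR1* and *PR2* are high only in *se-1* replicate 3.

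Genes of jasmonate synthesis and response, the wound hormone pathway, were lower for 12 of 14 with a median log2 of -0.69. *LOX2*, the plastid lipoxygenase, was at 199, 150 and 221 CPM in *se-1*, against 1018, 1016 and 948 CPM in WT (log2 -2.39 ± 0.12, edgeR adjusted p = 2.97e-08). *LOX3* fell by 1.65 ± 0.15, the synthesis enzymes *AOS*, *AOC1* and *OPR3* by 0.67, 0.72 and 0.67, and the response gene *VSP1* by 1.01 ± 0.09. *PDF1.2*, another response gene, was lower by 3.46 ± 0.45. It needed WT libraries to pass the filter, so its direction is not read as a result. *JMT*, which methylates the hormone, was the exception with a rise of 1.02 ± 0.26. Of 11 tested *JAZ* repressor genes, which jasmonate turns on, 5 were lower and none higher.

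Secondary metabolism followed in part. Indole glucosinolate genes, defence compounds made from tryptophan, were lower for 6 of 7 with a median of -0.87, and *CYP79B2*, which makes the first step, was at 56.2, 60.6 and 63.7 CPM in *se-1*, against 115, 120 and 123 CPM in WT (log2 -0.99 ± 0.06). *CYP83B1* fell by 0.97 ± 0.06 and the regulators *MYB51* and *MYB34* by 1.01 ± 0.17 and 0.69 ± 0.06. Aliphatic glucosinolate genes were mixed, with 5 lower and 2 higher of 14, and the regulator *MYB76* was at 12.6, 10.3 and 15.2 CPM in *se-1*, against 3.62, 3.77 and 3.78 CPM in WT (log2 1.76 ± 0.15).

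Of 15 flavonoid and anthocyanin genes 6 were lower and 4 higher, and the higher count was 2 without *se-1* replicate 1, *se-1* replicate 3, WT replicate 2 or WT replicate 3. *DFR*, *LDOX* and *UF3GT*, the late steps to anthocyanin, fell by 1.72 ± 0.20, 0.93 ± 0.13 and 3.10 ± 0.47, and their activators *MYB75* and *TT8* by 1.13 ± 0.22 and 1.02 ± 0.26. *CHS*, the entry enzyme, was at 250.2, 173 and 208 CPM in *se-1*, against 157, 134 and 137 CPM in WT (log2 0.56 ± 0.11). *MYBL2*, a repressor of the late steps, was at 140.1, 189 and 178 CPM in *se-1*, against 54.1, 51.2 and 58.5 CPM in WT (log2 1.63 ± 0.10).

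The large enzyme families of this metabolism held many genes that fell. Of 174 cytochrome P450 genes 67 (38.5%) were lower and 22 (12.6%) higher, and of 102 UDP-glycosyltransferase genes 39 (38.2%) were lower and 9 (8.82%) higher, against 16.2% and 17.6% of all tested genes. The largest falls among them were *CYP706A7* (-2.87 ± 0.21), *CYP702A5* (-2.52 ± 0.10) and *UGT73C1* (-2.70 ± 0.51), and *CYP706A3* (2.42 ± 0.26) and *CYP71B22* (2.03 ± 0.14) rose. *UGT73C1* needed WT libraries to pass the filter, so its direction is not read as a result. Glutathione S-transferases (14 lower and 7 higher of 47) and class III peroxidases (15 lower and 7 higher of 55) leaned the same way.

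Cold-regulated genes were lower for 9 of 14 with a median of -0.69. *COR15A* and *COR15B* encode proteins that guard plastid membranes in the cold. *COR15A* was at 54.9, 83.0 and 89.3 CPM in *se-1*, against 356, 318 and 337 CPM in WT (log2 -2.15 ± 0.14), and *COR15B* fell by 2.59 ± 0.07. *KIN2* fell by 1.72 ± 0.08, *RD29A* by 1.08 ± 0.09, *LTI30* by 0.82 ± 0.09 and the regulator *CBF1* by 1.04 ± 0.20. Summed over the 14 genes, levels were between 1.73e+03 and 2.18e+03 CPM in *se-1* and between 3.37e+03 and 3.43e+03 CPM in WT. All seedlings were kept on ice during the harvest, and the part of that time in these levels was not tested.

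*RD29B*, which answers abscisic acid (ABA), was the member called higher, but its libraries overlapped: it was at 3.15, 39.2 and 40.8 CPM in *se-1*, against 6.52, 2.53 and 10.1 CPM in WT (log2 2.11 ± 0.64, edgeR adjusted p = 0.0233). This call was lost without replicate 2 or 3 of *se-1* or replicate 1 or 2 of WT, at log2 values of 1.74 to 2.12, and with DESeq2 (adjusted p = 0.136). *RAB18*, another ABA-responsive gene, showed the same spread (28.3, 159 and 170.0 CPM in *se-1*, 55.5, 46.9 and 75.7 CPM in WT) and was not called. ABA receptor genes were higher for 6 of 9 and lower for 2. The rises were led by *PYL5* (1.35 ± 0.13) and *PYL4* (0.84 ± 0.07), while the inhibitory phosphatase gene *PP2CA* fell by 0.85 ± 0.10. Heat shock genes were lower for 4 of 11 and higher for 1, with falls in *HSFA2* (-1.79 ± 0.48) and *HSP70* (-0.68 ± 0.07). *HSFA2* needed WT libraries to pass the filter, so its direction is not read as a result. Of 30 genes of the HSP70 and HSP90 families, 13 were lower and 1 higher.

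Genes of salicylic acid and pathogenesis were higher for 6 of 17 and lower for 2, and replicate 3 of *se-1* set the largest of the rises. *PR1*, a marker of systemic defence, was at 0.863, 0.559 and 41.5 CPM in *se-1*, against 1.21, 1.098 and 0.864 CPM in WT (log2 3.72 ± 1.26, edgeR adjusted p = 0.0378). Without that library the log2 value was -0.58 (adjusted p = 0.242). *PR2* was at 3.81, 6.80 and 60.2 CPM in *se-1*, against 4.42, 6.06 and 4.96 CPM in WT, so that both genes overlapped between the groups, and its log2 value was 0.06 without *se-1* replicate 3 and its call was lost with DESeq2 (adjusted p = 0.15). *ALD1*, which makes a precursor of the mobile defence signal, was alike in the 3 *se-1* libraries: it was at 17.3, 16.9 and 17.8 CPM in *se-1*, against 4.96, 9.12 and 5.91 CPM in WT (log2 1.38 ± 0.16). *WRKY49*, a transcription factor, was also highest in replicate 3 (2.13, 3.17 and 8.62 CPM in *se-1*, 0.715, 0.811 and 0.864 CPM in WT).

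Among regulators of leaf form, 5 of 12 KNOX and polarity genes were higher and 1 was lower. *KNAT2*, a KNOX gene of the meristem, was at 6.34, 9.78 and 8.99 CPM in *se-1*, against 1.47, 1.29 and 1.41 CPM in WT (log2 2.58 ± 0.19). *AS1*, which keeps KNOX genes off in leaves, was at 103, 98.1 and 103 CPM in *se-1*, against 153, 164 and 147 CPM in WT (log2 -0.61 ± 0.06), and its partner *AS2* rose by 1.08 ± 0.16. *YAB1* and *YAB2*, of the lower leaf side, rose by 0.85 ± 0.08 and 0.75 ± 0.07. *STM*, *KNAT1* and *KNAT6* were between log2 -0.08 and 0.23 and were not called, and the trichome inhibitor *TRY* rose by 2.03 ± 0.20.

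Auxin-induced families held genes called in both directions. Of 23 *Aux/IAA* repressor genes 5 were higher and 6 lower. *IAA29* was at 0.457, 0.326 and 0.431 CPM in *se-1*, against 3.93, 4.49 and 3.64 CPM in WT (log2 -3.30 ± 0.23), and *IAA6* fell by 2.34 ± 0.28, while *IAA2* rose by 0.65 ± 0.07. *SAUR* growth genes were higher for 17 of 56 and lower for 11, and wall-loosening expansins were higher for 9 of 22 and lower for 4. *EXPB2* was at 6.60, 7.27 and 6.19 CPM in *se-1*, against 0.447, 0.334 and 0.409 CPM in WT (log2 4.05 ± 0.20). At these levels *EXPB2* needed *se-1* libraries and *IAA29* needed WT libraries to pass the filter, so the direction of neither is read as a result. The cytokinin response regulator *ARR9* rose by 1.37 ± 0.06, the only type-A *ARR* called of 9.

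RNAs of the nuclear processing machinery also changed. Of 287 snoRNA genes, guides of rRNA modification, 45 passed the filter, and 23 of these were higher and 1 lower. The filter bears on this count, since genes low in WT can pass through *se-1* libraries alone, and the number of higher snoRNA genes was 12 when at least 1 CPM in 3 libraries was required and 10 to 12 without any 1 of the *se-1* libraries. The snoRNA gene AT5G00755 was at 1.52, 1.30 and 0.916 CPM in *se-1*, against 0.223, 0 and 0.136 CPM in WT (log2 3.29 ± 0.52). The U4 snRNA genes U4.7 and U4.8, part of the spliceosome, rose by 2.99 ± 0.44 and 3.56 ± 0.58 from levels near the floor in WT, and 80 of 82 snRNA genes did not pass. Of 20 genes of SR splicing factors 3 were higher (15%) and 2 lower (10%), and of 37 proteasome genes 3 were higher (8.11%) and 5 lower (13.5%), shares below those of all tested genes.

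The pentatricopeptide repeat proteins, which edit and process organelle RNA, were lower for 46 of 278 (16.5%), near the background, and higher for 21 (7.55%). NLR immune receptors were lower for 36 of 129 (27.9%) and higher for 25 (19.4%), mostly by small steps, since only 5 fell and 2 rose at least 2-fold. WRKY transcription factors were higher for 16 of 58 (27.6%) and lower for 7 (12.1%). Aquaporins were higher for 6 of 17 (35.3%) and lower for 2 (11.8%).

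Among all called genes whose average over the 6 libraries was 5 CPM or more, with no overlap between the groups, the largest fall was in AT5G26270, a gene of unknown function, with 5.33, 4.52 and 5.39 CPM in *se-1*, against 362, 364 and 301 CPM in WT (log2 -6.08 ± 0.11). Next were AT5G24240, annotated as a phosphatidylinositol 4-kinase (-3.99 ± 0.11), and the phloem lectin *PP2-A1*, with 4.21, 4.84 and 3.72 CPM in *se-1*, against 64.5, 62.3 and 71.0 CPM in WT (log2 -3.94 ± 0.10). *MBP1*, a myrosinase-binding protein, fell by 3.38 ± 0.13 and the lectin AT1G52000 by 2.73 ± 0.11. By the same limit, the other 5 of the 10 largest falls were *IPS1*, *AT4*, *PS2*, *COR15B* and AT5G35480.

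Under the same limit, which leaves out *MIRNA* genes of lower average level, the 10 largest rises held 3 *MIRNA* genes (*MIR168a*, *MIR156c* and *MIR171c*) and 3 genes annotated as other RNA. AT4G06880 was at 53.8, 54.1 and 57.8 CPM in *se-1*, against 1.92, 2.34 and 2.82 CPM in WT (log2 4.55 ± 0.10). It lies at chr4:10579179-10579659 on the minus strand, beside *MIR168a* on the plus strand, and counting without strand cannot tell a transcript of that locus from one running through it from *MIR168a*. AT4G30975 and AT2G07042 rose by 3.65 ± 0.12 and 3.60 ± 0.12. The transporter *PGP10* was at 14.8, 15.6 and 12.2 CPM in *se-1*, against 0.536, 0.191 and 0.546 CPM in WT (log2 5.04 ± 0.22). The others included 2 late embryogenesis abundant protein genes, AT3G17520 and AT3G02480, which were lower in *se-1* replicate 1 than in replicates 2 and 3. The last was the lipid transfer protein gene AT4G12490, which was highest in *se-1* replicate 3. At their WT levels *PGP10*, AT3G17520 and AT4G12490 needed *se-1* libraries to pass the filter, so their direction is not read as a result.

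The 3 mutants were also compared directly, *se-1* against *cbp20* and against *cbp80*, in 1 fit of all 12 libraries. Of 20882 genes, 1545 (7.4%) were higher and 1302 (6.24%) lower in *se-1* than in *cbp20*, and 1147 (5.49%) were higher and 1244 (5.96%) lower in *se-1* than in *cbp80*. Without *cbp80* replicate 2 the 2391 differences from *cbp80* numbered 1558. Of 60 *MIRNA* genes tested in this fit, 35 were higher in *se-1* than in *cbp20* and 0 lower. Against *cbp80*, 24 were higher in *se-1* and 1 lower. Genes low in the other genotypes could enter this fit through *se-1* libraries alone, and could then hardly be called lower. *MIR395b*, called higher against both mutants, was at 0.256 ± 0.0573 CPM in *cbp20* and 0.264 ± 0.0416 CPM in *cbp80*, with no count in WT. The counts include such genes, so the balance of higher and lower calls is not read as a result. *MIR172b* was at 6.24 ± 0.580 CPM in *se-1*, against 0.554 ± 0.101 CPM in *cbp20* (log2 3.50 ± 0.28) and 0.840 ± 0.417 CPM in *cbp80* (log2 2.92 ± 0.26). *MIR168a* differed less, with 30.4 ± 2.94 CPM in *se-1*, 10.8 ± 2.43 CPM in *cbp20* and 15.9 ± 2.34 CPM in *cbp80*. *MIR158a* was higher in *se-1* than in *cbp20* (log2 0.73 ± 0.18) and not called against *cbp80* (0.12 ± 0.17).

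Among targets, *CUC1* was higher in *se-1* than in *cbp20* (log2 2.04 ± 0.33) and in *cbp80* (1.61 ± 0.31), and so were *CSD2* (1.17 and 0.80), *DCL1* (0.70 and 0.71) and *AGO1* (0.51 and 0.61). *DCL1* was at 98.0 ± 5.42 CPM in *se-1*, 60.3 ± 3.47 CPM in *cbp20* and 59.9 ± 2.88 CPM in *cbp80*. *SPL13A* was not called against either mutant (log2 0.13 ± 0.25 and -0.04 ± 0.25).

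The phosphate starvation genes were lower in *se-1* than in *cbp20* for 10 of 19 and than in *cbp80* for 14 of 19, with none higher. *IPS1* was at 1.09 ± 0.410 CPM in *se-1*, against 3.07 ± 0.273 CPM in *cbp20* and 3.74 ± 0.882 CPM in *cbp80*. Photosystem genes were higher in *se-1* for 16 and 11 of 44. In the clock, *LHY* was higher in *se-1* than in *cbp20* (1.02 ± 0.08) but not called against *cbp80* (0.21 ± 0.08), and evening genes were lower in *se-1* than in *cbp20* for 7 of 12 (0 higher) and than in *cbp80* for 2 (3 higher).

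Cold genes differed in both directions from *cbp20*, where 5 of 14 were lower and 2 higher in *se-1* (median log2 -0.025), and in one direction from *cbp80*, where 8 were higher and none lower. *COR15A* was at 75.2 ± 18.2 CPM in *se-1*, against 153 ± 39.2 CPM in *cbp20* (log2 -1.03 ± 0.16) and 30.1 ± 1.2 CPM in *cbp80* (log2 1.32 ± 0.17). *LOX2* (-0.78 and 0.56) and *PP2-A1* (-2.82 and 0.72) also lay below *cbp20* and above *cbp80* in *se-1*. U4.7 was lower in *se-1* than in both, with 1.38 ± 0.392 CPM in *se-1*, 3.90 ± 0.918 CPM in *cbp20* and 8.46 ± 1.59 CPM in *cbp80*. *FLC* had no count in *se-1* or *cbp80* and 0.459 ± 0.12 CPM in *cbp20*.

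**Figure D5:**
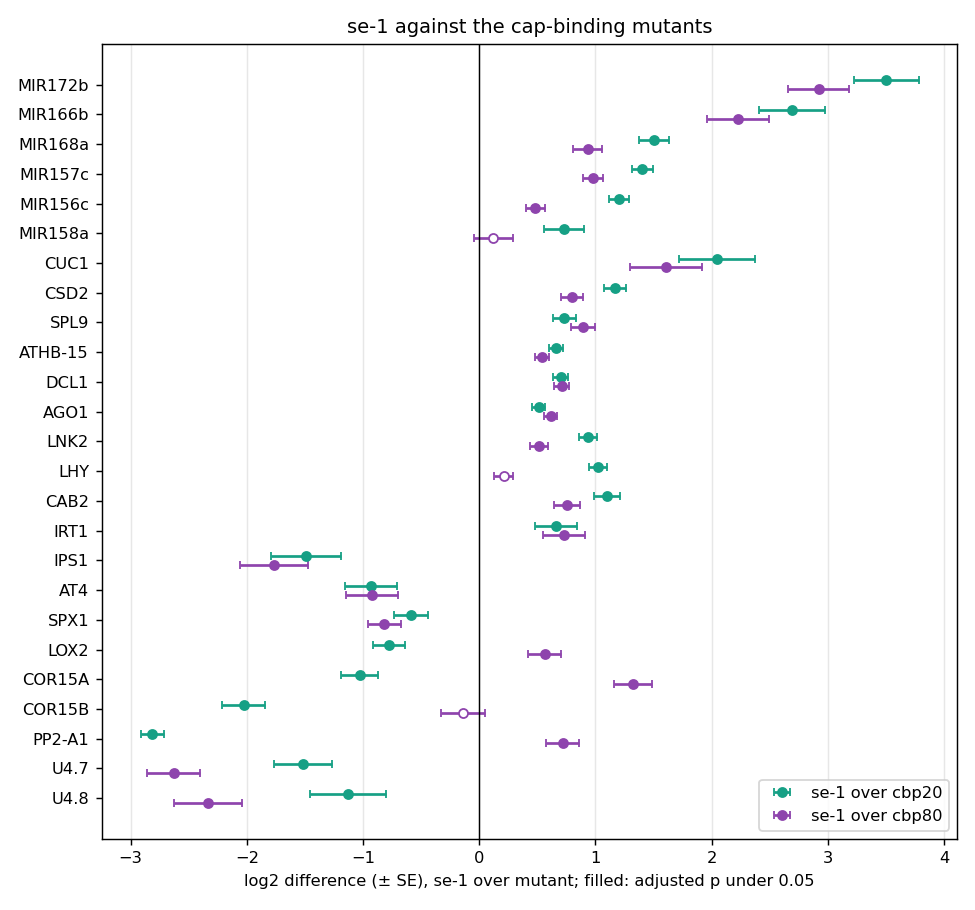
Log2 difference of *se-1* over *cbp20* (green) and over *cbp80* (purple) for 25 genes, ± SE of the fit, with filled points where the adjusted p was under 0.05. Most *MIRNA* genes and targets lie right of 0 against both mutants, *IPS1*, *AT4* and *SPX1* left of 0, and *LOX2*, *COR15A* and *PP2-A1* on opposite sides.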

How the data were processed

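The deposited values are raw counts of read pairs for each gene. Per the labels and the methods of the study, reads of rRNA and tRNA were taken out by the authors (Bowtie2 2.1.0), who then aligned the rest to TAIR10 with TopHat2 2.1.1 and counted pairs per gene with featureCounts, with no use of strand. Pairs on exons of several genes or with several alignments were left out, which lowers counts of overlapping genes and of near-identical copies. The authors' DESeq2 1.14.1 tables hold their own fold changes and p-values and were not used here.

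A gene was tested where 3 or more of the 6 libraries each held 10 or more counts. A gene low in one genotype could pass through the other alone, as *FLC* and *IAA29* did through WT. Such a gene could then hardly be called in the opposite direction, so its direction is not read as a result. Counts were scaled by TMM and tested with edgeR 4.0.16 (quasi-likelihood, R 4.3.3), Benjamini-Hochberg adjustment ran over all tested genes, and an adjusted p under 0.05 was called. The test was also run on simulated data. Levels are CPM after TMM, as mean ± SD over 3 libraries, and the SE of a log2 fold change is its size over the square root of the F statistic. Direct contrasts of *se-1* with *cbp20* or *cbp80* came from a joint fit of 12 libraries, so CPM values differ slightly there. DESeq2 1.42.0, other scalings and filters, the joint fit, a replicate block and leaving out each library were the alternatives.

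Lists came from known pathways and from annotated gene families. Named genes were at most 4 rises and 4 falls a list, members that define its role, the 10 largest rises and falls over all genes, and SE and the cap-binding genes. Members and lists were chosen with earlier results of these data known. RefSeq coordinates matched those of the count table for 99.95% of 32548 paired genes. Sites were searched in 27853 transcripts, the longest of each gene, and elements in 500 bases before each gene start. Counting intervals (95%) and floors cover counting error only.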

Additional observations from a re-analysis of the deposited data

How the results depend on the processing

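Depth limits most *MIRNA*, snoRNA and snRNA genes, which had few or no counts in WT. Of 3141 values of named genes under the alternatives, 3065 kept their direction and their side of the threshold, and 225 of 244 called genes did so wherever a value could be had. Genes with few counts gave no value in 96 of the refits. The 19 genes whose call was lost somewhere were *AFB2*, *EXPA18*, *EXPA7*, *FER3*, *FT*, *GGCT2;1*, *IAA5*, *LAC2*, *NIR1*, *PR1*, *PR2*, *PSBQ-2*, *PYE*, *RD29B*, *REV*, *RVE2*, *SCR*, *SPL2* and *TCP3*. DESeq2 called 3070 genes higher and 2542 lower. Scaled by library size alone, 5077 genes were lower, because that scaling shifted the median of all genes, *PHR1* was at -0.044 and *FIT* at -0.074. Without 1 library each in turn, *FIT* was between -0.058 (without *se-1* replicate 1) and 0.074, and -0.04 without WT replicate 2, and *PR1* was between -0.58 (without *se-1* replicate 3) and 4.31. Higher snoRNA genes numbered 37 with no filter, 12 at 1 CPM, and 10 to 20 without 1 library, with 10 to 12 when it was an *se-1* library. Without 1 library, 2826 to 3134 genes were higher, 2566 to 2881 lower, and 1558 to 1936 differed between *se-1* and *cbp80*, the fewest without *cbp80* replicate 2. The cause of these shifts was not tested. Deviations of samples with the same replicate number correlated at 0.117, -0.036 and 0.063, against -0.111 to 0.054 for samples with different numbers. So few values cannot tell whether a number marks libraries made together. A replicate block gave 3676 genes higher and 3386 lower.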

Other observations

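Of 192 families of genes that share an annotated product, a few stood out by their counts, and those given here were chosen after their values were seen. Proteins with a Cysteine/Histidine-rich C1 domain were lower for 37 of 85 (43.5%, against 16.2% of all tested genes) and higher for 6, with a median log2 of -0.56. Of 12 genes annotated as cotton fiber protein 7 were lower (58.3%) and none higher, and of 23 TRAF-like genes 10 were lower and 2 higher. MATE efflux carriers, which export organic compounds, were lower for 15 of 41 (36.6%) and higher for 8. Plant invertase and pectin methylesterase inhibitors annotated as a superfamily protein were higher for 12 of 20 (60%) and lower for 1, but a second annotation of nearly the same name held 6 higher and 7 lower of 19, so the direction depended on the annotation used.

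A run of 5 neighbouring genes on chromosome 4, AT4G15660 to AT4G15700, annotated as Thioredoxin superfamily proteins and all on the plus strand, was higher in *se-1*. AT4G15670 was at 8.22, 14.9 and 10.4 CPM in *se-1*, against 1.79, 1.29 and 0.819 CPM in WT (log2 3.10 ± 0.27), and AT4G15680 was at 9.19, 14.5 and 10.2 CPM in *se-1*, against 1.07, 1.34 and 1.55 CPM in WT (log2 3.10 ± 0.21). The others, AT4G15660, AT4G15690 and AT4G15700, were at log2 1.41 ± 0.15, 1.97 ± 0.23 and 2.49 ± 0.18, and replicate 2 was the highest *se-1* library for all 5. Pairs that align to several near-identical copies were not counted, so the share of each gene is uncertain.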
